A study of Homo sapiens with 16 samples.

Results

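The regions described here are stretches of open chromatin that lie inside the longest protein-coding genes. Peaks of 16 ATAC-seq lists were merged on chromosomes 1 to 22 and X wherever they overlapped by 1 base or more. A merged region was a member when it lay wholly inside a RefSeq protein-coding gene of 500 kb or more (hg38) and more than 1 kb from both ends of that gene. This gave 32241 members among 321056 regions, or 10.04%. All 314 genes of that length, of 19974 protein-coding genes, held at least 1 member, and 83 members lay in more than 1 such gene. Just outside the length limit, CPQ (498.259 kb) and DIAPH3 (498.345 kb) held 50 and 62 regions, and just inside it AFF2 (500.046 kb) and PPP2R2B (500.778 kb) held 77 and 84.

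ATAC-seq uses the Tn5 transposase to cut and tag accessible DNA. The cells came from brain organoids, tissues grown in culture from the human embryonic stem cell line H9, whose genotype the labels give as WT. The line carried a pair of reporters, EGFP joined to SOX2, a transcription factor of neural progenitors, and dTomato under the promoter of SYN1, a synaptic vesicle gene. Sorted SOX2::EGFP+ cells are called progenitors here and sorted hSyn1::dtomato+ cells neurons. Each population was taken at D40, D60, D90 and D120 (days of culture), with 2 libraries per population and day, which gives 8 progenitor and 8 neuron libraries. The EGFP reporter sits on 1 SOX2 allele, so the sort reads the activity of that allele, and neurons were chosen by the activity of an inserted promoter, not by SYN1 itself. Whether both libraries of a group stem from separate cultures is not stated in the labels. Every p-value therefore measures only the spread among these libraries, and that spread may be technical.

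A gene of this length takes RNA polymerase many hours to transcribe, most of its span is intron, and its introns can hold enhancers, internal promoters and other genes. In brain tissue the longest genes are enriched for those that build the synapse: adhesion molecules, ion channels, receptors and their scaffolds. Several of them also span common fragile sites, which break when replication is slowed.

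Some members covered starts of transcription that RefSeq places inside these genes. Sequences before such starts are shown because they include starts whose regions followed the sorted population. The RefSeq promoter table (GRCh38.p14) gave 967 internal starts in 252 of the 314 genes. It had no entry for 52 of the 314 genes, so internal starts of those were not used. Of the 967 starts, 375 were starts of the host gene itself, and 529 belonged to long non-coding RNAs. The 250 bases before each start were compared with the members. No region overlapped 459 of them (47.5%), 259 (26.8%) overlapped a region with a peak in 1 to 15 libraries, and 249 (25.7%) overlapped a region with a peak in all 16. Only 9 overlapped a region that passed the test between the populations described further on, 5 on the progenitor side and 4 on the neuron side. Of the 7 printed below, the far and near DMD starts, NAV2 and LOC105375164 were on the progenitor side. MAGI2-AS2 and LOC105369416 were on the neuron side, and the middle DMD start lay in a region with a peak in all libraries. Peaks were counted over the whole region, so a library's peak need not reach the 250 bases themselves. Capitals mark TATAAA or CCAAT on either strand.
DMD, far internal start (chrX:31508297-31508546, minus strand): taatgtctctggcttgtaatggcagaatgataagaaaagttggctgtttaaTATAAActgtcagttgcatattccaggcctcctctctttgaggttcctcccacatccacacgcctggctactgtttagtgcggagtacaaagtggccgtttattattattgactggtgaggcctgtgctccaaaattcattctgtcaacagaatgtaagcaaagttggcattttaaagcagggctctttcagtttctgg
DMD, middle internal start (chrX:32155470-32155719, minus strand): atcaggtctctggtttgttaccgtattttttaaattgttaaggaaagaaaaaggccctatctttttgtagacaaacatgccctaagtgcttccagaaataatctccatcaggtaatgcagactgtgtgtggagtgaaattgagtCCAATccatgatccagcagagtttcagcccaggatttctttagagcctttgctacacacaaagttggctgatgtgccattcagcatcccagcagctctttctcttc
DMD, near internal start (chrX:33211550-33211799, minus strand): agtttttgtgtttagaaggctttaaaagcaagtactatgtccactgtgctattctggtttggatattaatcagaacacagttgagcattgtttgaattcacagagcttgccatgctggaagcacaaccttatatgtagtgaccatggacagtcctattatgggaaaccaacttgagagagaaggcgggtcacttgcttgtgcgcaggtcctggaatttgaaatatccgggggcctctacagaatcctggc
NAV2, internal start (chr11:20022306-20022555, plus strand): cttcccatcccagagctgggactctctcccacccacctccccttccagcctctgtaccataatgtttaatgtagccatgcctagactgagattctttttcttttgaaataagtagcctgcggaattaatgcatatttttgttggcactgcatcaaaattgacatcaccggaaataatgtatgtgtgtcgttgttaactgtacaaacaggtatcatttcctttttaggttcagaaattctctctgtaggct
LOC105375164 inside DGKB (chr7:14376649-14376898, plus strand): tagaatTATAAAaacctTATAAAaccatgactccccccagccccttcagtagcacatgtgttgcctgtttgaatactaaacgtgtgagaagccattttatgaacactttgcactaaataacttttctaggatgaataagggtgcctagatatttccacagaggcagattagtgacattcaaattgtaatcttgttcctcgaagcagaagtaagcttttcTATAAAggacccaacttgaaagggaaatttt
MAGI2-AS2 inside MAGI2 (chr7:79008738-79008987, plus strand): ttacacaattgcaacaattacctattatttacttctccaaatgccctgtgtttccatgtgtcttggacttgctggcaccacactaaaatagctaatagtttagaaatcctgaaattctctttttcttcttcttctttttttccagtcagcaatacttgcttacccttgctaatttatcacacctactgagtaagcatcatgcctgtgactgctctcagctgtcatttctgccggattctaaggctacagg
LOC105369416 inside DLG2 (chr11:84594702-84594951, plus strand): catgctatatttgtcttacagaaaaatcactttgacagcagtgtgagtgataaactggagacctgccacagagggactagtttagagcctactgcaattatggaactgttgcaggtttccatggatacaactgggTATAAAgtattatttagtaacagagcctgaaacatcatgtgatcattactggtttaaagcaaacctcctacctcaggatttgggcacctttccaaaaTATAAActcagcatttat

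DMD encodes dystrophin, which links the cytoskeleton to the cell membrane, and is known for several internal promoters that give shorter dystrophins. Which form each start below gives was not examined, and a start inside the RefSeq span need not give a shorter one. The region at its far internal start (X, 31507866 to 31509146) had a peak in 8 progenitor libraries and 1 neuron library, and the region at its near start (X, 33211453 to 33212120) in 7 and 0 (Fisher's exact test, two-sided, adjusted p = 0.0323 for both). The middle start lay in a region of 2341 bases with a peak in all 16 libraries. A further DMD start at X, 32412229 to 32412478 overlapped no region, and a pair of nearly identical windows from X, 33128428 overlapped a region with a peak in 1 progenitor and 3 neuron libraries. Starts of the same gene thus lay in regions open in all libraries, mainly in progenitors or in few libraries, or in no region.

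NAV2, a cytoskeletal protein of neurite growth, had an internal start (11, 20022306 to 20022555) in a region with a peak in 7 progenitor and 0 neuron libraries (adjusted p = 0.0323). LOC105375164, a long non-coding RNA inside the diacylglycerol kinase gene DGKB, began in a region of 1772 bases (7, 14376333 to 14378104) with a peak in 8 and 0 (adjusted p = 0.0118). SMYD3-AS1, inside the methyltransferase gene SMYD3, was the remaining start on the progenitor side, also with 8 and 0. On the neuron side MAGI2-AS2, inside the synaptic scaffold gene MAGI2, had 0 and 8 (7, 79008313 to 79009150; adjusted p = 0.0118). LOC105369416 inside DLG2, LOC124904239 inside DLGAP1 and LOC105378214 inside PPP2R2B each had 0 and 7 (adjusted p = 0.0323).

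Starts in regions open in all libraries differed from the rest in base composition, as a description without a test. The median GC content of the 250 bases was 57.6% with 11 CpG where the region had a peak in all 16 libraries. It was 42% with 2 CpG where no region overlapped. Over all 34943 RefSeq windows it was 58.0% with 11 CpG. The 9 starts in regions that passed the test had a median GC content of 39.2% and at most 3 CpG. TATAAA or its complement TTTATA was present in 5 of these 9 windows and in 9.24% of the windows in regions open in all libraries. It was present in 20.04% of those without a region and in 10.8% of all windows. CCAAT or ATTGG was present in 1 of the 9, GGGCGG or CCGCCC in 0, and CAGATG or CATCTG in 0, while all windows held them in 32.0%, 42.5% and 12.2%. The window of GGGCGG can overlap other GC-rich motifs, and a match describes letters only.

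Members with an internal start stood apart from the other members in how many libraries shared them. Of 404 such members, 172 (42.6%) had a peak in all 16 libraries, and their median width was 1630 bases. Of the 31837 others, 1057 (3.32%) had a peak in all 16, and their median width was 661 bases. Even so, members without a known internal start made up 86.0% of the 1229 members that were open in all libraries. Members of the 52 genes without an entry in the promoter table count as members without a start, since starts there were not used. Among the 165 members with an internal start that could be tested, 5 passed on the progenitor side (3.03%, where 3.06% of all regions passed) and 4 on the neuron side (2.42%, where 1.27% passed).

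**Figure D1:**
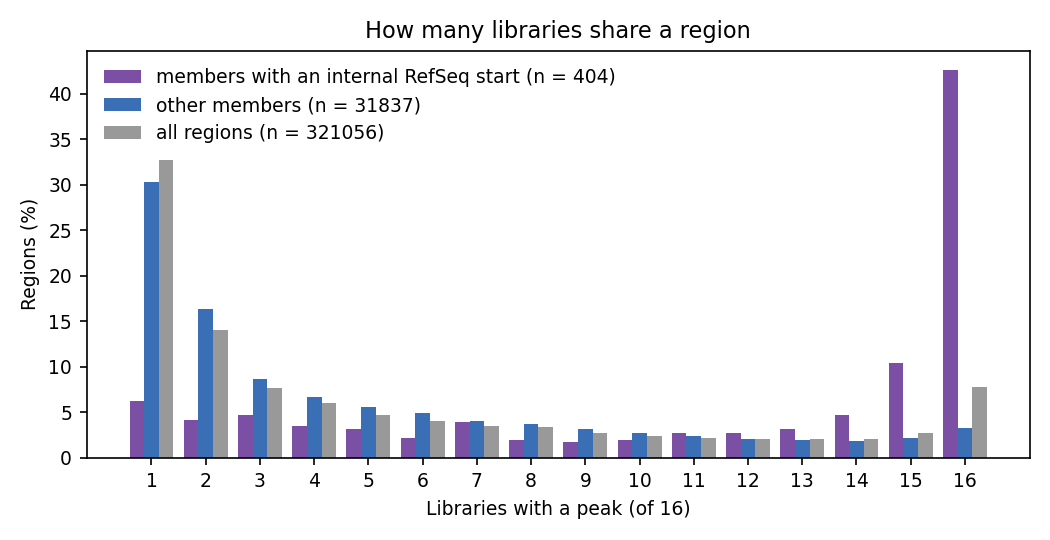
Percent of regions (vertical axis) by the number of libraries with a peak, 1 to 16 (horizontal axis). Purple bars are the 404 members with an internal RefSeq start, blue bars the 31837 other members and grey bars all 321056 regions; 42.6% of the purple class and 3.32% of the blue class had a peak in all 16 libraries.

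MicroRNA hairpins inside these genes were compared with the members in the same way. Of 77 hairpins, 14 overlapped a member, and 1 overlapped a member that passed the test. It was MIR3123 inside RGS7, a regulator of G-protein signalling (1, 241132272 to 241132346), whose region had a peak in 7 progenitor and 0 neuron libraries (adjusted p = 0.0323). Its mature sequence from RefSeq is given with the seed, bases 2 to 8, in capitals.
hsa-miR-3123: cAGAGAAUuguuuaauc

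Members lay close to regions in shorter genes in width and density, and a smaller share of them was open in all libraries. Their median width was 667 bases, with quartiles of 369 and 1095 and a maximum of 8051. They occurred at 12.4 per 100 kb of gene interior, against 12.9 in genes of 100 to 500 kb and 11.5 in shorter genes. A peak in all 16 libraries was found for 3.81% of members, 5.21% of regions in genes of 100 to 500 kb, 5.92% of those in shorter genes and 4.53% of those outside protein-coding genes. The share found in 1 library only was 30.0% of members and 32.7% of all regions. Where the strand was known, for 262 of the 314 genes, of 5 equal parts of the gene the first held 17.7% of members and the last 21.9%. For members open in all 16 libraries these shares were 16.4% and 26.6%. All of these are descriptions of the region set, without a test.

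The genes themselves held from 14 to 320 members each, with a median of 93. RBFOX1, the longest gene (16, 5239721 to 7713340; 2474 kb) and a regulator of splicing in neurons, had 320. PTPRD, a synaptic receptor phosphatase, had 312, AUTS2, a chromatin regulator, 289, and CNTNAP2, a neurexin-like adhesion molecule, 278. Per length the range ran from 2.71 members per 100 kb in STXBP5L to 26.5 in SORCS2, a sorting receptor. SORCS2, AUTS2, TENM4, GSE1 and RBFOX3 were the densest genes, and STXBP5L, ANXA8, SCAPER, AGBL4 and SUPT3H the sparsest. A RefSeq span can hold other protein-coding genes, as that of ANXA8 holds starts of FAM25G and NPY4R2, so density belongs to the span. Such a start was found in 36 of the 314 genes, of which 52 had no entry in the promoter table. AUTS2 also held the most members open in all libraries, 29, followed by GSE1 with 20.

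The lists hold no read numbers, so depth is unknown and only the presence and extent of peaks can be compared. The shortest lists were progenitor day 120 replicate 2, with 36.9 Mb covered, and neuron day 60 replicate 2, with 54.8 Mb, and the longest covered 104 Mb. SOX2 and 20 kb on either side had 7.10 to 18.0 kb of peaks in progenitors and 3.81 to 8.94 kb in neurons, while SYN1 had 2.52 to 3.91 and 2.42 to 3.74 kb. The 10 progenitor markers took 0.968 to 1.23 of every 1000 covered bases in progenitors and 0.604 to 0.877 in neurons, without overlap. The 10 neuron markers overlapped, with 0.789 to 1.18 in progenitors and 0.914 to 1.06 in neurons, and their highest value was in a progenitor library. Lists of markers for oligodendrocyte lineage, microglia and blood, endothelium, mesenchyme, choroid plexus and interneurons overlapped between the populations, and no marker of any list was at 0 in every library of a population. The part of other cell types in the results was not tested. In sorted populations, fewer cells with an open region and less opening per cell cannot be told apart.

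The share of each library's covered bases that lay in members did not differ detectably between the populations. It was 8.16% ± 0.564 in progenitors and 8.58% ± 0.817 in neurons (SD, n = 8 each), with a lowest, median and highest value of 7.29%, 8.29% and 8.81% in progenitors and 7.13%, 8.54% and 9.89% in neurons. The difference of −0.429 percentage points did not pass (two-sided exact permutation p = 0.245, adjusted p = 0.771 over 15 comparisons of library values, none of which passed). Early (days 40 and 60) and late (days 90 and 120) libraries did not differ detectably either, with 7.99% ± 0.435 and 8.32% ± 0.694 in progenitors (SD, n = 4 each, exact p = 0.457) and 8.67% ± 1.21 and 8.50% ± 0.254 in neurons (exact p = 0.829). The smallest p that 4 against 4 libraries can give is 0.0286. Member peaks were narrower than the other peaks of the same list, at 90.7% ± 1.12 of their mean width in progenitors and 89.8% ± 1.85 in neurons (SD, n = 8 each). Their median fold over background, taken from the authors' calls, was 100.02% ± 1.53 and 99.96% ± 1.81 of that of the other peaks.

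The highest shares belonged to the day 40 neurons, 9.89% and 9.34%, while the day 40 progenitors had 7.92% and 8.53%. These neuron lists were also among the longest, with 104 and 97.9 Mb, against 77.8 and 82.8 Mb. When every list was cut to the covered length of the shortest by keeping its highest-ranked peaks, the day 40 neurons had 6.61% and 5.22%, the latter the lowest of the 16 libraries, and the day 40 progenitors 6.69% and 7.11%. The day 40 excess was thus present in the full lists and turned around among the highest-ranked peaks.

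**Figure D2:**
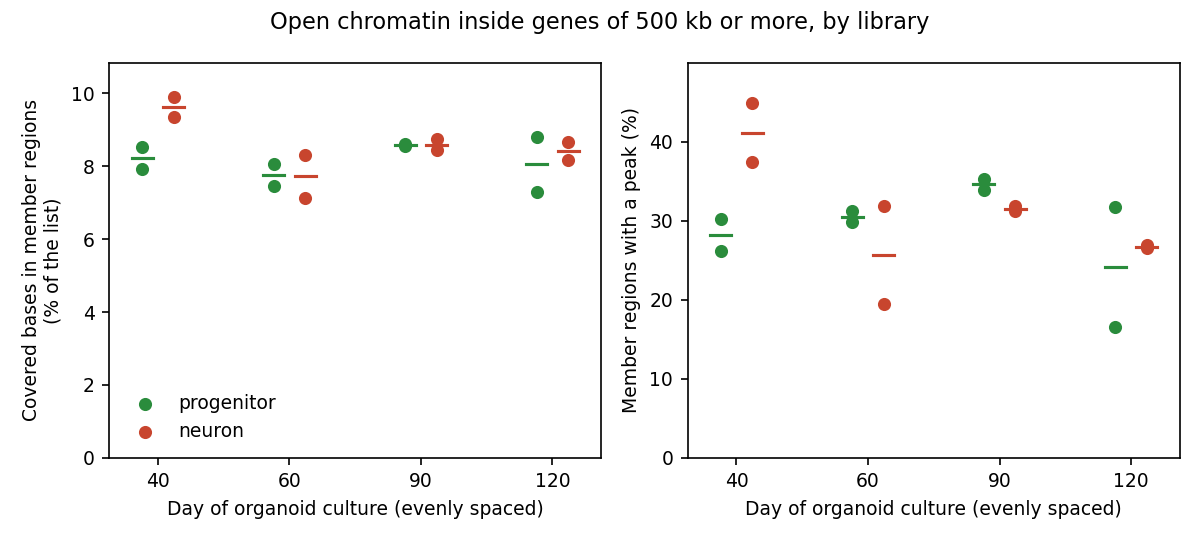
Left, percent of a library's covered bases that lie in member regions; right, percent of the 32241 members with a peak; both by day of culture, with each point a library and each bar the mean of the 2 libraries of a group. The day 40 neurons are highest on the left, at 9.89% and 9.34%, and progenitor day 120 replicate 2, the shortest list, is lowest on the right, at 16.5%.

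Single regions were then compared between the populations, as the design implies, by the number of libraries with a peak. The 20616 members seen in 2 to 14 libraries entered a test of 182575 regions (Fisher's exact test, two-sided, 8 against 8 libraries, Benjamini-Hochberg adjustment over all of them). More progenitor libraries had a peak at 632 members (3.07% of those tested, where 3.06% of all regions passed in that direction). More neuron libraries had a peak at 368 members (1.79%, where 1.27% of all regions passed). Progenitor calls thus made up 63.2% of the calls among members and 70.7% of all calls, and members were 11.3% of the regions tested, 11.3% of progenitor calls and 15.9% of neuron calls. The neuron share was 1.30% in genes of 100 to 500 kb and 0.816% in shorter genes. A peak in all 8 libraries of a population and none of the other was found for 199 progenitor members (0.965%, against 1.02% of all regions) and 89 neuron members (0.432%, against 0.296%). Without progenitor day 120 replicate 2 the progenitor count was 973, and without neuron day 40 replicate 2 the neuron count was 573. Without the 2 shortest lists the counts were 378 and 145. Leaving out libraries changes which regions are tested, and the shares of all regions that then passed are not given here. Whether members moved apart from other regions was therefore not tested. An exact test with day as stratum left 0 members in either direction (lowest adjusted p = 0.107), with 2194 and 1692 at an unadjusted p under 0.05. The smallest p that this stratified test can give is 0.00154, which adjusted to 0.107 here. No region could therefore pass, and the 0 decides nothing about the calls.

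From the members that separated the populations fully, 8 in each direction are named by the mean covered bases in the open population. The exons of these genes were not used here, so each position is given by gene only. On the progenitor side the region in FAF1, a ubiquitin-binding protein of cell death signalling, spanned 2866 bases (1, 50666846 to 50669711), with 279 to 2408 covered bases in the 8 progenitor libraries. In NCAM2, a cell adhesion molecule, it lay at 21, 21101545 to 21103855, with 241 to 2151 covered bases. In ADGRV1, a very large adhesion receptor, it lay at 5, 91095016 to 91096944, with 718 to 1840. Further progenitor regions lay in RBFOX1 (16, 6341721 to 6343499), in the postsynaptic scaffold genes DLGAP2 (8, 780218 to 782059) and DLG2 (11, 84020505 to 84022942), in DPP10, an accessory subunit of potassium channels (2, 115293874 to 115295501), and at the start of LOC105375164 in DGKB described above.

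On the neuron side the region in TENM3, a teneurin of synaptic adhesion, lay at 4, 181468353 to 181470498, with 419 to 2110 covered bases in the 8 neuron libraries. In GRIP1, which binds AMPA receptors, it lay at 12, 66851627 to 66853682, with 546 to 1982. In ADGRB3, an adhesion receptor of synapses, it lay at 6, 69313476 to 69314805, with 433 to 1311. Further neuron regions lay in FARS2, a mitochondrial tRNA synthetase (6, 5712315 to 5714239), HS6ST3, which sulphates heparan sulphate (13, 96794723 to 96796487), ATP8A2, a phospholipid flippase of neurons (13, 25802615 to 25804754), UNC5D, a netrin receptor (8, 35777217 to 35780660), and AFF2, a nuclear protein (X, 148698295 to 148700306). All 16 regions had 8 libraries against 0 (Fisher's exact test, p = 0.000155, the smallest the test can give, adjusted p = 0.0118). Their distance from the nearer end of the gene ran from 15.9 kb in UNC5D to 1102 kb in RBFOX1. With day as stratum none of the 16 kept the call (lowest adjusted p = 0.107), but no region could pass that exact test, as given above. None of the 16 kept the call when a peak had to cover 50% of the region, a setting that left 75 progenitor and 23 neuron members. With lists cut to equal length, which left 365 and 132, the region in DGKB alone kept it.

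Many very long genes held regions of both kinds. A progenitor region was present in 239 of the 314 genes, a neuron region in 193, both in 153 and neither in 35. NRXN3, a presynaptic neurexin, held the most progenitor regions, 10, followed by RAD51B and MACROD2, with 8 each. RBFOX1 held the most neuron regions, 9, followed by DMD with 7. DMD also held 7 progenitor regions, and RBFOX1 held 3. Such counts grow with the members a gene holds, with a median of 93 and a highest of 320, in RBFOX1. Over all regions tested, 3.06% passed on the progenitor side and 1.27% on the neuron side. The counts per gene were not tested against these shares.

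Day by day, with 2 libraries against 2, the larger count moved between the populations. At day 40 a peak in both neuron and neither progenitor library was found for 4821 members (23.3% of those with a peak, against 17.4% of all regions), and the reverse for 2106 (10.2%, against 9.89%). At day 60 the neuron count was 1970 (11.05%, against 8.21%) and the progenitor count 3544 (19.9%, against 16.3%). At day 90 they were 2164 (11.7%, against 9.13%) and 3075 (16.6%, against 14.7%), and at day 120 they were 2686 (16.9%, against 13.1%) and 1629 (10.3%, against 9.18%). At days 40, 60 and 90 the larger count belonged to the population with more covered length, 101 against 80.3 Mb in neurons at day 40, 82.4 against 69.1 Mb in progenitors at day 60 and 101 against 80.2 Mb in progenitors at day 90. At day 120 neurons had the larger count with a mean of 59.3 against 61.0 Mb. That progenitor mean pools lists of 85.2 and 36.9 Mb, while the neuron lists had 63.0 and 55.7 Mb. A count that needs a peak in both libraries is limited by the shorter list, so day 120 is no clear exception. The part of list length in these counts was not tested. In all 8 counts the percentage was higher for members than for all regions, which is a description without a test.

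Between stages, few members opened or closed in all libraries. In neurons 497 members had a peak in all 4 late and no early library (2.03%, against 1.67% of all regions), and 92 the reverse (0.375%, against 0.361%). In progenitors the counts were 208 (1.04%, against 0.795%) and 164 (0.820%, against 0.737%). Late neuron lists averaged 69.7 Mb and early ones 85.1 Mb.

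The interior of each gene was then measured as a whole, as the kilobases covered by peaks between 1 kb from its ends. For tests this was taken as log2 of the covered bases plus a pseudocount of 500, minus log2 of the library's total covered bases, and is called scaled coverage. One limma fit covered 12217 genes of any length, and a positive difference means higher in progenitors. Of the 314 very long genes, 59 were higher in progenitors (18.8%, where 13.8% of all genes passed) and 89 in neurons (28.3%, where 14.8% of all genes passed). The median difference was −0.04 for the very long genes and −0.05 for all genes. The populations were fully apart, all 8 libraries above the other 8, for 19 very long genes (6.05%, against 2.86% of all genes), 8 higher in progenitors and 11 in neurons. Of the 148 genes that passed, 117 had the same direction on all 4 days. Without scaling, 18 genes were higher in progenitors and 14 in neurons, so progenitor genes made up 56.3% of calls there and 39.9% in the scaled fit.

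Among the longest genes, more were higher in neurons than in progenitors. Of 69 genes of 1 Mb or more, 25 (36.2%) were higher in neurons and 9 (13.0%) in progenitors, while of 245 genes between 500 kb and 1 Mb the counts were 64 (26.1%) and 50 (20.4%). Genes of 200 to 500 kb gave 22.9% and 24.1%, and genes under 100 kb 12.4% and 11.3%. The median SE fell with length, from 0.197 under 100 kb to 0.0922 at 1 Mb or more, so longer genes were measured more precisely, and the median absolute difference was 0.21 at 1 Mb or more and 0.28 under 100 kb. For the genes of 1 Mb or more, the neuron and progenitor counts were 16 and 11 with lists of equal length, 14 and 7 with scaling by the median over genes, 26 and 7 with numbers of peaks, 20 and 11 without the 2 shortest lists, and 4 and 3 without scaling.

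RYR2, a calcium release channel of the endoplasmic reticulum (1, 237042184 to 237833988), had the largest neuron difference, with 9.34, 12.04 and 18.1 kb of peaks at its lowest, median and highest neuron library and 1.73, 5.62 and 8.12 kb in progenitors. Every neuron library was above every progenitor library in kilobases, but not in scaled coverage. There neuron day 40 replicate 2, at −13.242, lay below progenitor day 40 replicate 2, at −13.231. The scaled difference was −1.30 ± 0.14 (SE, limma adjusted p = 2.81e-06). No single member of RYR2 passed the test between the populations.

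RBFOX1 had 31.1, 76.6 and 113 kb in neurons and 11.7, 37.7 and 57.4 kb in progenitors. Kilobases overlapped between the populations, and scaled coverage did not. The difference was −1.11 ± 0.10 (limma adjusted p = 5.56e-07). Within RBFOX1, 9 members passed on the neuron side and 3 on the progenitor side, among them the fully separating progenitor region named above.

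CDH13, a cadherin without a cytoplasmic tail (16, 82626969 to 83800640), had 14.9, 25.1 and 43.1 kb in neurons and 5.31, 12.8 and 18.1 kb in progenitors, with a difference of −1.11 ± 0.11 (adjusted p = 7.97e-07). Its daily differences were close to each other, at −1.0, −1.24, −1.06 and −1.14. DSCAM, an immunoglobulin adhesion molecule that keeps neurites of a cell apart (21, 40010999 to 40847158), had 17.5, 36.8 and 52.7 kb in neurons and 8.42, 18.0 and 30.7 kb in progenitors (difference −0.93 ± 0.10, adjusted p = 1.82e-06). Scaled coverage of both genes was fully apart between the populations. LUZP2 (−1.11), the cadherin CDH18 (−1.09), the sarcoglycan SGCZ (−0.95), the carbonic anhydrase-related CA10 (−0.90), the synaptic scaffold protein LRRC7 (−0.89) and the microtubule-associated MTUS2 (−0.88) completed the 10 largest, with adjusted p from 1.69e-05 to 0.00215. CA10 and MTUS2 lost the call with lists of equal length, and LRRC7 lost it without scaling.

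Among the 10 largest progenitor differences, RAD51B, a DNA repair gene (14, 67819779 to 68683096), had 18.9, 41.5 and 55.9 kb in progenitors against 8.72, 23.1 and 28.5 kb in neurons. Its scaled difference was 1.01 ± 0.08 (adjusted p = 1.83e-07), and it held 8 progenitor members and 0 neuron members that passed. RARB, a receptor for retinoic acid (3, 24829321 to 25597932, a span that overlaps TOP2B), had 10.9, 32.0 and 35.3 kb in progenitors, whereas it had 8.14, 13.7 and 22.96 kb in neurons (difference 0.93 ± 0.08, adjusted p = 4.05e-07). Both were fully apart in scaled coverage and higher in progenitors on each of the 4 days.

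FAF1 had the largest difference, 1.34 ± 0.21 (adjusted p = 0.000108), with 2.97, 19.7 and 22.3 kb in progenitors and 0.546, 5.52 and 14.9 kb in neurons. Its range was set by the 2 shortest lists, progenitor day 120 replicate 2 at 2.97 kb and neuron day 60 replicate 2 at 0.546 kb, and its daily differences ran from 0.64 to 2.46. SPAG16, a protein of the sperm tail and cilia (1.06), C12orf42 (0.91), the urea transporter SLC14A2 (0.88), ADGRV1 (0.85), the sorting receptor SORCS3 (0.81) and GMDS, which makes GDP-fucose (0.77), had adjusted p from 2.5e-06 to 3.46e-05. SORCS3 was the exception among the days, with −0.42 at day 40 and 0.92 to 1.66 later. SUPT3H, whose span overlaps RUNX2, had 1.07 ± 0.19 (adjusted p = 0.000286) on a median of 4.19 kb in progenitors and 1.19 kb in neurons. It reversed with lists of equal length to −0.63 (adjusted p = 0.0245).

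**Figure D3:**
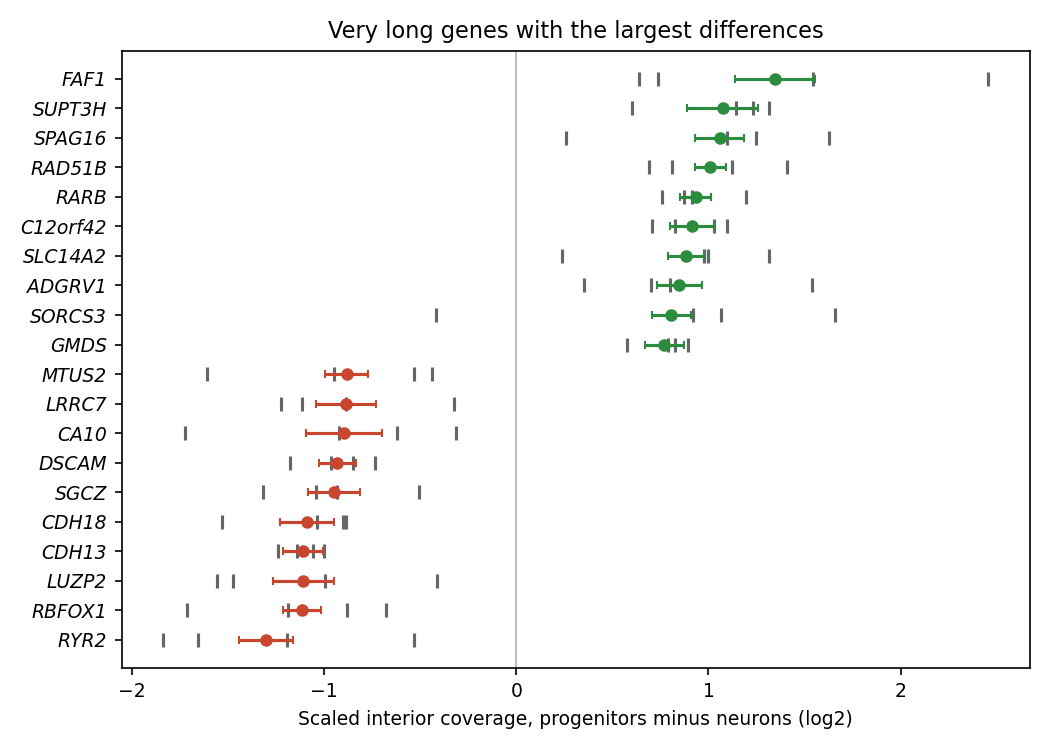
Difference in scaled interior coverage, progenitors minus neurons (log2, horizontal axis), for the 10 very long genes with the largest difference in each direction. Circles with bars are the fit over all days ± SE and grey ticks are the 4 daily differences; FAF1 is highest at 1.34, RYR2 lowest at −1.30, and SORCS3 alone has a tick on the other side of 0.

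The following counts of genes grouped by role stand beside 13.8% of all genes higher in progenitors and 14.8% higher in neurons, and no list was tested as a whole. Without scaling, each of the 11 lists had at most 2 calls in either direction. The cadherin, protocadherin and catenin list had 11 very long genes, 0 higher in progenitors and 5 higher in neurons, CDH13, CDH18, CDH12 (−0.59), PCDH15 (−0.58) and CTNNA2, with a list median of −0.18. With lists of equal length 3 of the 11 passed on the progenitor side and 5 on the neuron side. CDH12 and PCDH15 held 3 and 2 progenitor members that passed and no neuron member. The RNA-binding list had 5 very long genes, of which RBFOX1, the RNA-binding protein KHDRBS2 (−0.79), RBFOX3 (−0.68), known as the neuronal antigen NeuN, and the splicing regulator CELF2 (−0.37) were higher in neurons and none in progenitors. Its median was −0.68. Without scaling 1 of the 5 passed on the neuron side, and with numbers of peaks 1 passed on the progenitor side and 4 on the neuron side.

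The transcription and chromatin factor list had more genes on the progenitor side. Of its 17 very long genes, 9 were higher in progenitors and 3 in neurons, with a median of 0.28. Under the other scalings the median lay between 0.18 and 0.33, with 2 and 0 calls without scaling and 7 and 2 with lists of equal length. FOXP2, a forkhead factor linked to speech, had 9.51, 21.7 and 28.4 kb in progenitors and 7.93, 10.3 and 20.8 kb in neurons, fully apart in scaled coverage (0.71 ± 0.09, adjusted p = 1.95e-05). SOX6 (0.65 ± 0.08, adjusted p = 1.82e-05) and ZBTB20 (0.62 ± 0.09, adjusted p = 5.49e-05), both factors of cortical progenitors, were also higher in progenitors, as were RORA, MECOM, FOXP1, GLIS3, ESRRG and NPAS3. MYT1L, a factor that represses non-neuronal genes (−0.57 ± 0.09), SMYD3 and AUTS2 (−0.21 ± 0.07, adjusted p = 0.032) were higher in neurons. The AUTS2 call was lost without any 1 of 10 of the libraries and with lists of equal length, without scaling, with scaling by the median over genes or with a pseudocount of 100.

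Adhesion and signalling lists held genes in both directions. In the immunoglobulin, neurexin and teneurin list 4 of 28 were higher in progenitors and 9 in neurons, with a median of −0.04. DSCAM, CNTNAP5 (−0.85) and SDK1 (−0.60) were higher in neurons, and IL1RAPL1, a synapse organiser linked to intellectual disability, was higher in progenitors (0.56 ± 0.12, adjusted p = 0.00161). In the guidance and neuregulin list, 3 of 13 were higher in progenitors and 6 in neurons. The counts were 2 and 0 without scaling, 3 and 2 with scaling by the median, 2 and 1 with lists of equal length and 3 and 3 with numbers of peaks. ERBB4, the neuregulin receptor, had 13.5, 40.1 and 53.1 kb in progenitors against 11.3, 19.0 and 45.6 kb in neurons (0.73 ± 0.10, adjusted p = 2.64e-05). NRG3, a ligand of ERBB4, went the other way with 6.61, 23.4 and 25.6 kb in progenitors and 18.1, 31.4 and 42.8 kb in neurons (−0.72 ± 0.10, adjusted p = 4.9e-05). The ligand and its receptor thus had interior coverage on opposite sides, though the NRG3 call was lost without scaling and with lists of equal length, as was that of IL1RAPL1. SEMA5A (0.56) and SLIT3 (0.31) were higher in progenitors and EPHA6 (−0.51) in neurons, where the EPHA6 call was lost without progenitor day 120 replicate 2 (adjusted p = 0.0527) and the value was −0.34 without neuron day 40 replicate 1.

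None of the 6 very long glutamate receptor genes passed in limma. GRIK2 had −0.26 ± 0.10 (adjusted p = 0.0553) and GRM8 0.25 ± 0.13 (adjusted p = 0.16), and GRIK2 reversed with lists of equal length (0.57, adjusted p = 0.0056). Of 13 ion channel genes 2 were higher in progenitors and 5 in neurons, among them RYR2, the calcium channel CACNA1C (−0.46), FGF12 (−0.44), which binds sodium channels, and the potassium channel KCNQ5 (−0.40). Of 27 scaffold, release and phosphatase genes 5 were higher in progenitors, led by SORCS3, the active zone protein ERC2 (0.70) and PTPRM (0.55), and 7 in neurons, led by DLGAP2 (−0.63), while lists of equal length gave 11 and 4. Of 16 phosphodiesterase, kinase and lipid genes 2 were higher in progenitors and 5 in neurons, with PDE1A (−0.60), RGS7 (−0.49), DOCK1 (−0.45) and PDE4D (−0.42) the largest. In DOCK1 the gap lay mainly at day 40, with scaled coverage of −13.87 and −13.64 in progenitors and −12.26 and −12.18 in neurons. At day 90 it was −12.74 and −13.03 against −12.61 and −12.73, and at days 60 and 120 the populations overlapped. RGS7 held 5 progenitor members that passed and 1 neuron member, although its coverage as a whole was higher in neurons.

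Among 16 genes at common fragile sites 4 were higher in progenitors (RAD51B, GMDS, WWOX and FHIT) and 5 in neurons, among them EXOC4 (−0.65), CCSER1 and CSMD1, and lists of equal length gave 6 and 3. The heparan sulphate and matrix list had 10 very long genes, among them AGBL4 and AGBL1, which are genes of neither kind. Of the 10, 3 were higher in progenitors, ADAMTSL1 (0.70 ± 0.11), AGBL4 (0.46) and GPC6 (0.31), and HS6ST3 in neurons (−0.80 ± 0.13). The longest genes had small differences: CNTNAP2 −0.31 ± 0.07 (adjusted p = 0.00238), PTPRD −0.31 ± 0.08 (adjusted p = 0.00626), DLG2 −0.14 ± 0.06 (adjusted p = 0.103) and DMD 0.04 ± 0.09 (adjusted p = 0.769).

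Coverage of a gene and its single regions did not always point the same way. Of the 59 genes higher in progenitors, 54 held a progenitor member that passed and 22 a neuron member. Of the 89 higher in neurons, 67 held a neuron member and 52 a progenitor member. In 16 of the 148 genes no member passed in either direction. SOX6, higher in progenitors as a whole, held 0 progenitor members and 1 neuron member that passed.

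The plot of kilobases by library shows 6 genes with different courses over the days.

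**Figure D4:**
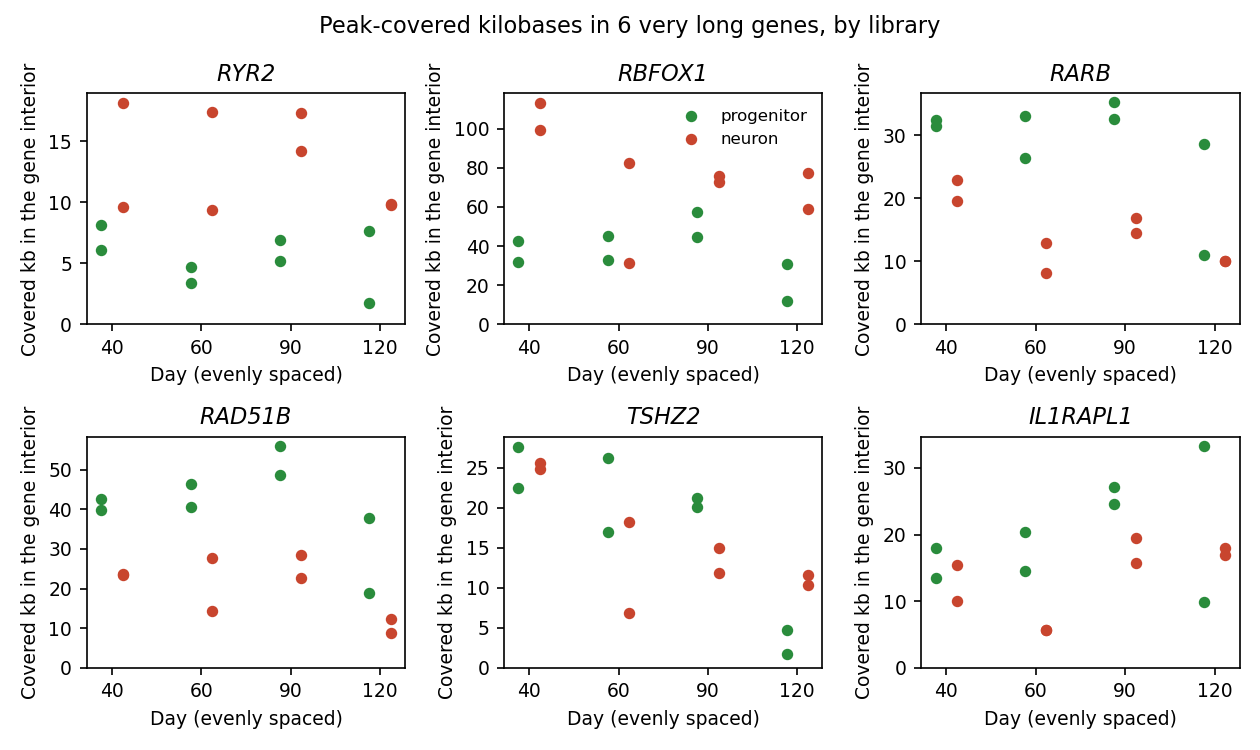
Kilobases of peaks in the gene interior (vertical axis) by day for RYR2, RBFOX1, RARB, RAD51B, TSHZ2 and IL1RAPL1; each point is a library, green for progenitors and red for neurons. TSHZ2 falls to 4.74 and 1.77 kb in the day 120 progenitors after 16.9 to 27.6 kb on earlier days. RYR2 has no overlap between the populations in kilobases.

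By day, the very long genes leaned to neurons at day 40. There 19 were higher in progenitors (6.05%, where 6.57% of all genes passed) and 56 in neurons (17.8%, where 4.2% of all genes passed), with a median of −0.16 for very long genes and 0.13 for all genes. RBFOX3 (−1.24), RALYL (−1.42) and DOCK1 (−1.53) were among the named genes with the largest neuron differences, and ADGRV1 (1.54) had the largest progenitor difference. The direction turned with lists of equal length, where 56 were higher in progenitors and 23 in neurons and the median was 0.14. The shares and median of all genes with these lists are not given here. Whether this turn was particular to very long genes was therefore not tested. Leaving out either library of a population at day 40 gave 21 to 37 genes higher in neurons and 3 to 16 in progenitors, with counts of 37 without progenitor day 40 replicate 2 and neuron day 40 replicate 1, 21 without progenitor day 40 replicate 1 and 30 without neuron day 40 replicate 2. At day 60 the counts were 41 in progenitors (13.1%, against 4.12%) and 33 in neurons (10.5%, against 5.12%). They were 15 (4.78%, against 2.46%) and 19 (6.05%, against 3.32%) at day 90, and 18 (5.73%, against 3.97%) and 31 (9.87%, against 3.93%) at day 120.

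Late minus early contrasts asked which genes gained or lost interior coverage as the organoids aged. In progenitors 21 of the 314 genes were higher late (6.69%, where 2.58% of all genes passed) and 16 lower (5.10%, where 1.42% passed). TSHZ2, a zinc finger factor (20, 52972358 to 53495330), fell by 1.34 ± 0.16 on the log2 scale (adjusted p = 0.000256). It had 22.5 and 27.6 kb at day 40, 26.3 and 16.9 kb at day 60, 20.1 and 21.2 kb at day 90 and 4.74 and 1.77 kb at day 120, so in kilobases the fall lay at day 120. In scaled coverage the day 90 libraries, at −12.29 and −12.15, were already below the early ones, at −11.53 to −12.12. Both day 120 libraries stood at −13.99. SLIT3, a secreted repellent of axons (5, 168661740 to 169301139), fell by 1.07 ± 0.13 (adjusted p = 0.000256). It had 30.0 and 30.6, 20.6 and 19.4, 21.7 and 16.8, and 10.7 and 2.97 kb from day 40 to day 120.

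CCDC178 (−1.16), ATRNL1 (−1.04) and the synaptic vesicle protein SV2C (−0.95) were the other largest decreases. The ATRNL1 call was lost without any 1 of 12 libraries (adjusted p up to 0.136) and that of CCDC178 without any 1 of 5 (up to 0.0872). Without progenitor day 120 replicate 2 the falls were −0.50 for ATRNL1 (adjusted p = 0.0644) and −0.70 for CCDC178 (adjusted p = 0.0464), and without day 120 replicate 1 that of ATRNL1 was −1.57. The largest increases in progenitors were VPS13B, a protein of the Golgi (1.02 ± 0.27, adjusted p = 0.0359), the sodium, calcium and potassium exchanger SLC24A2 (0.96 ± 0.12, adjusted p = 0.000284), RALYL (0.91 ± 0.15, adjusted p = 0.0032), PRELID2 (0.90 ± 0.18, adjusted p = 0.0105) and ARHGAP6 (0.84 ± 0.14, adjusted p = 0.00376). VPS13B lost its call without any 1 of 8 libraries and PRELID2 without any 1 of 3. SLC24A2 was also higher in neurons than in progenitors over the days (−0.87 ± 0.08, adjusted p = 1.08e-06).

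In neurons 27 genes were higher late (8.60%, where 5.38% of all genes passed) and 23 lower (7.32%, where 3.09% passed). IL1RAPL1 (X, 28587446 to 29956718) rose by 1.27 ± 0.17 (adjusted p = 0.000375), with 15.5 and 9.99 kb at day 40, 5.64 and 5.73 kb at day 60, 19.5 and 15.7 kb at day 90 and 16.9 and 17.9 kb at day 120. In kilobases its low values were those of day 60. TAFA1, a secreted chemokine-like protein (0.98), LRRC7 (0.95), ADGRV1 (0.82) and ZBTB20 (0.78) were the next largest. LRRC7 lost its call without neuron day 40 replicate 2, day 60 replicate 2 or day 120 replicate 1 (adjusted p from 0.0519 to 0.0719). ZBTB20 rose in progenitors too (0.49 ± 0.13, adjusted p = 0.035).

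CCDC178 (−1.24), SLIT3 (−0.90 ± 0.13, adjusted p = 0.000595), the astrotactin ASTN2 (−0.74), the homeobox factor ZFHX3 (−0.74) and SORCS2 (−0.70) fell most in late neurons. SLIT3 therefore fell in both populations, from 39.4 and 34.8 kb in day 40 neurons to 7.23 and 6.52 kb at day 120. RBFOX3 also fell in both, by 0.58 ± 0.14 in progenitors (adjusted p = 0.0219) and 0.69 ± 0.14 in neurons (adjusted p = 0.00427).

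These counts moved with the scaling and with single libraries. Without scaling, the median of all genes shifted from −0.004 to −0.12 in progenitors, from 0.07 to −0.20 in neurons and from −0.07 to 0.08 for the difference between them, and no very long gene passed (limma, 0 in each direction). Scaling by the median over genes gave 10 higher and 5 lower in progenitors and 7 higher and 18 lower in neurons, and lists of equal length gave 62 higher and 10 lower in neurons, so the share of neuron calls that were higher late was 54.0% in the scaled fit, 28% with the median and 86.1% with equal lists. Leaving out 1 library moved the progenitor counts between 6 and 28 higher and between 4 and 18 lower. For the higher genes they were 6 without day 40 replicate 1 or day 90 replicate 1, 7 and 13 without day 60 replicate 2 and 1, and 9 without day 90 replicate 2. For the lower genes they were 4 without day 40 replicate 1 or day 90 replicate 1, 5 without day 40 replicate 2, day 60 replicate 2 or day 90 replicate 2, 6 without day 60 replicate 1 and 9 without day 120 replicate 2. In neurons the higher count was 10 and 17 without day 120 replicate 1 and 2, 11 without day 40 replicate 2, 12 without day 90 replicate 1 and 16 without day 60 replicate 2, and the lower count 10 without day 90 replicate 1 and 15 without day 120 replicate 1.

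The difference between the populations in their late minus early change was tested as an interaction. It passed for 4 very long genes with a higher change in progenitors (where 0.377% of all genes passed) and 3 with a lower one (where 0.499% passed). RALYL, an RNA-binding protein (8, 84182787 to 84921844), had a difference of 1.12 ± 0.22 (adjusted p = 0.018), with 6.53 and 8.19 kb in day 40 progenitors and 19.96 and 5.54 kb at day 120, against 32.6 and 20.4 kb in day 40 neurons and 12.8 and 10.4 kb at day 120. The tyrosine kinase receptor ALK had 0.93 ± 0.17 (adjusted p = 0.0157). The adhesion molecules KIRREL3 (0.80 ± 0.16, adjusted p = 0.0262) and LSAMP (0.73 ± 0.16, adjusted p = 0.038) followed. TSHZ2 (−1.14 ± 0.22, adjusted p = 0.0204), TAFA1 (−0.90 ± 0.21, adjusted p = 0.0464) and AGBL1, a tubulin deglutamylase (−0.84 ± 0.19, adjusted p = 0.038), went the other way. Each of the 7 lost its call without 1 library, from any 1 of 4 for ALK and RALYL to any 1 of 14 for TAFA1. None of the 7 passed without scaling, with scaling by the median, or with numbers of peaks, and the number of genes that passed lay between 0 and 16 when 1 library was left out: 0 without progenitor day 90 replicate 1 or neuron day 90 replicate 1, 1 without progenitor day 90 replicate 2 or neuron day 120 replicate 2, 2 without progenitor day 40 replicate 1 or day 60 replicate 1, 3 without progenitor day 40 replicate 2 or day 60 replicate 2, 4 without neuron day 40 replicate 2 and 16 without progenitor day 120 replicate 2.

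**Figure D5:**
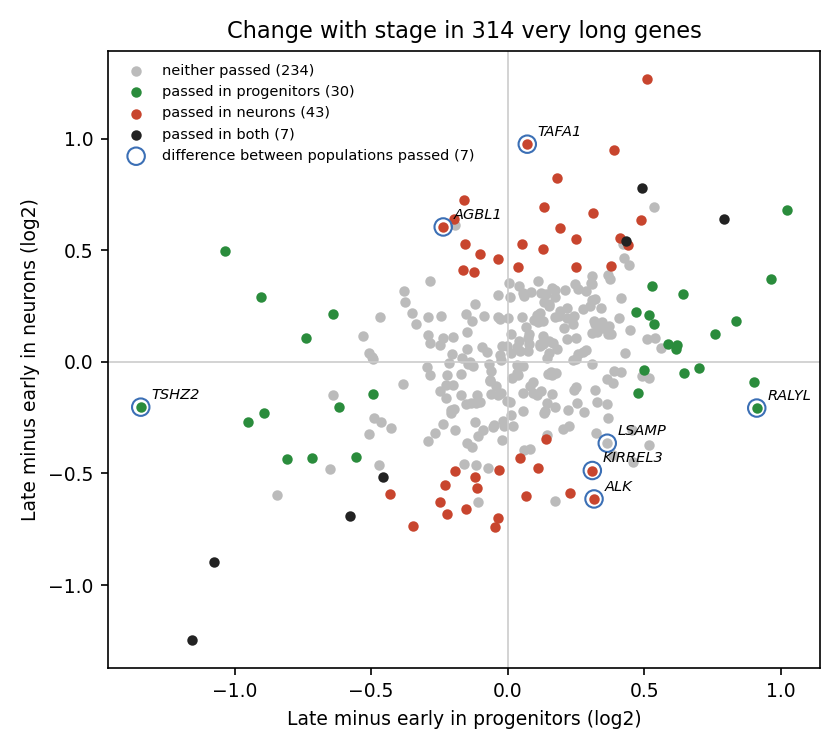
Late minus early change in scaled interior coverage (log2) in progenitors (horizontal axis) and in neurons (vertical axis) for 314 very long genes; colours show in which population the change passed (limma adjusted p under 0.05), and blue rings the 7 genes whose changes differed between the populations. TSHZ2 lies far left, at −1.34 in progenitors and −0.20 in neurons, and RALYL far right, at 0.91 and −0.21.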

How the data were processed

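ATAC-seq peak lists of 16 libraries were analysed, 2 for each of 8 groups, grouped by their titles and by the labelled stage and reporter. Per the labels' protocol, nuclei were treated with Tn5 for 30 minutes. The submitters' processing notes name MACS2 2.1.2, SAMtools 1.9, Picard, BWA 0.7.17 and Trim Galore 0.5.0, and hg38 as the build. Not given in the sources used here is how duplicates, the Tn5 offset and excluded regions were handled. The deposited score of each peak, the deposited ratio (fold over background) and the deposited −log10 p and q-values are the authors' own, were called library by library, and served only to rank or filter peaks within a list. The lists give no read numbers, so a longer list can come from a deeper library, and depth limits are unknown.

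The members and the 11 gene lists were chosen with earlier results of these data known. Genes are RefSeq genes of GRCh38.p14, and all 268 list entries matched, 162 of them genes of 500 kb or more. A library had a region when a peak overlapped it by 1 base. Fisher's exact test was run on regions open in 2 to 14 libraries. Interior coverage of genes with 500 covered bases in at least 2 libraries was fitted with limma 3.58.1 (R 4.3.3; 8 group means; prior variance with a trend). P-values were adjusted by Benjamini-Hochberg over every feature tested, and 0.05 was the threshold. Library values were compared by exact permutation (scipy 1.17.1). Both tests were tested on simulated data.

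Named genes were the 10 largest differences in each direction that passed between the populations, 5 in each direction for each stage contrast, the 5 longest, the 5 densest and 5 sparsest, and from each list up to 4 that passed, or the 2 with the lowest adjusted p where none did. Named regions were up to 8 in each direction with the lowest Fisher p, ties broken by mean covered bases, 1 per gene. The CPQ, DIAPH3, NRXN3, MACROD2 and internal-start genes, and other list members given without a value, are named from counts and were chosen after their values were seen. Values of some list members are not reported here.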

Additional observations from a re-analysis of the deposited data

Results flagged for a closer look

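In 50 groups of 8 libraries, scaled coverage (log2) of the genes with the largest population differences was searched for a library far from the others. In all, 6 were found. Chance gives about 1 in 20 for 8 like values, but each group pooled 4 days, so that rate need not hold here. FAF1 stood at −13.38 in progenitor day 120 replicate 2, the lowest progenitor library, and at −15.68 in neuron day 60 replicate 2, the lowest neuron library. These are the 2 shortest lists. ADGRV1 stood at −13.56 and RYR2 at −13.24 in neuron day 40 replicate 2, each the lowest of the neurons. RBFOX1 stood at −10.76 in neuron day 60 replicate 2, again the lowest neuron library. CA10 stood at −15.8 in progenitor day 120 replicate 1, the lowest progenitor library, with 0.996 kb.

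In 7 genes the late minus early change differed between the populations by a tested interaction (limma, log2, progenitors minus neurons). The values were 0.9298 for ALK, 0.7285 for LSAMP, 1.118 for RALYL, 0.7961 for KIRREL3, −0.9038 for TAFA1, −0.8406 for AGBL1 and −1.14 for TSHZ2. In TSHZ2 most of the progenitor change lay at day 120, and in RALYL neurons were higher at day 40 and the populations close at day 120 (differences of −1.42 and −0.03).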

How the results depend on the processing

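The progenitor and neuron counts of very long genes (59 and 89) stayed within 1.5 times except without scaling (18 and 14). The share difference of −0.429 points turned to 0.059 with lists of equal length (exact permutation p = 0.870). Member regions with more progenitor or neuron peaks numbered 75 and 23 when a peak had to cover 50% of a region, 365 and 132 with lists of equal length, 1120 and 571 in genes of 300 kb or more, and 228 and 134 in genes of 1000 kb or more. Without the 2 shortest lists, a setting chosen after seeing the data, they numbered 378 and 145. That setting gave 38 genes higher late in progenitors and 22 whose change differed between populations. The shares of all regions or genes that passed under these settings are not given here. With a pseudocount of 100, 8 genes were lower late in progenitors, and with 2000, 32 were higher and 20 differed. Without scaling 0 genes passed in any stage contrast. Scaling by the median gave 10 higher and 5 lower late in progenitors, 7 higher late in neurons and 0 that differed. At a −log10 q of 2 or more, 32 were higher late in progenitors and 21 differed, and with lists of equal length 32 were higher late in progenitors, 62 higher and 10 lower in neurons, and 43 differed. Numbers of peaks gave 7 and 6 in progenitors, 11 and 14 in neurons and 1 that differed. The cause of these shifts was not tested.

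Without any 1 library, the share difference lay between −0.636 and −0.242, progenitor regions between 636 and 973, neuron regions between 373 and 573, progenitor genes between 47 and 67 and neuron genes between 73 and 100. Genes higher and lower late lay between 6 and 28 and between 4 and 18 in progenitors, between 10 and 38 and between 10 and 31 in neurons, and those that differed between 0 and 16.

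Deviations of same-numbered libraries correlated at −0.112, 0.151, 0.0404 and 0.156 from day 40 to day 120 over 12217 genes. With 2 libraries per group, these values cannot decide whether a replicate number marks a shared culture. With the replicate block in limma, 62 genes were higher in progenitors and 94 in neurons. For member regions the replicate block was day as a stratum, with 2 against 2 libraries and no replicate number, in an exact test, and 0 member regions passed in either direction (lowest adjusted p = 0.107; 2194 and 1692 at an unadjusted p under 0.05). No region could pass this exact test, since its smallest possible p of 0.00154 adjusted to 0.107.

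Sparse or undecided genes reversed. ANXA8 went from −0.01 to 0.0367 without scaling, 0.0172 with the median and 0.108 with numbers of peaks, and lay between −0.135 and 0.107 without 1 library. DMD went to −0.0694, GSE1 to −0.0234, STXBP5L to 0.0621, GRIK2 to 0.575 and SUPT3H to −0.633 with lists of equal length, and SCAPER to 0.00986 with numbers of peaks. Without 1 library DMD lay between −0.0362 and 0.123 and GSE1 between −0.00565 and 0.180. Over the other named results and the settings that did not leave out a single library, 810 kept their direction and side of the threshold. In these settings 176 lost the call and 4 gained it. Leaving out a single library is not in these totals. It lost from 1 call, without neuron day 40 replicate 1, to 12 calls, without progenitor day 90 replicate 1.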
